A study of Mus musculus with 12 samples.

Results

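The transcripts of 10 genes of glucose breakdown and of HIF-1 were measured in cultured mouse macrophages: *Hif1a*, the glucose transporter *Slc2a1*, the hexokinases *Hk1*, *Hk2*, and *Hk3*, *Pfkp* and *Pfkfb3* of the phosphofructokinase step, *Pgk1*, *Ldha*, and the lactate exporter *Slc16a3*. They were chosen by name, with earlier results of these data known. Each matched 1 gene identifier, so that 10 of the 43626 identifiers in the count files are members. All 10 had enough reads to be tested. The cells were bone marrow–derived macrophages (BMDMs), which are grown in culture from mouse bone marrow. By the study's text they received PBS, 3′-sialyllactose (3′SL, a milk sugar of lactose and sialic acid, 100 μg/mL), LPS (a bacterial outer membrane component that activates TLR4, 10 ng/mL), or LPS + 3′SL for 6 hours, with 3 polyA-enriched stranded RNA-Seq libraries for each condition. The labels name 3′SL as HMO, call all cells macrophages, and give injections of mice rather than these doses, and no strain, age, or donor was given for the cells, so p-values measure the spread between these libraries, which may be technical.

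Glycolysis converts glucose to pyruvate in the cytosol, and lactate dehydrogenase then reduces pyruvate to lactate, which monocarboxylate transporters carry out of the cell. HIF-1 is a transcription factor made of HIF-1α and ARNT. In the presence of oxygen, prolyl hydroxylases of the EGLN family mark HIF-1α for ubiquitination by the VHL ligase complex, and many genes of glucose uptake and glycolysis are known HIF-1 targets. Macrophages activated through TLR4 are known for a high rate of glycolysis, and the *Hif1a* transcript is itself known to be inducible by LPS.

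All libraries had reads on the 9 macrophage markers, with a summed level of 17850 to 30750 CPM (a gene's counts relative to the scaled library size), and *Lyz2* alone, which encodes lysozyme, was at 12150 to 15730 CPM. Levels are CPM on library sizes scaled with edgeR's TMM factors. Between 20411741 and 26851890 reads were counted on genes per library. Once the mean of each condition was taken out, the libraries were clustered by their residual correlations into a fixed number of 3 sets. Each set held 4 libraries, 1 of each condition (mean residual correlation 0.596 within and −0.346 between sets). These correlations formed the sets, and taking out means of 3 libraries pushes correlations within a condition below 0. The values thus describe the sets and do not test them. The sets are no batch named by the labels. Sets 1, 2, and 3 hold replicates 1, 2, and 3 of each condition, as numbered here in the order of listing. Values are always given for library sets 1, 2, and 3 in that order, with the fit over all libraries and, where it changes the call of a member, the fit with the sets as a block. Changes were called at a Benjamini-Hochberg adjusted p under 0.05 over 14308 genes and at least 1.5-fold (edgeR's quasi-likelihood test). LPS against PBS gave 2613 genes higher and 2889 lower. Scaling by total counts instead gave 1535 higher and 6657 lower and moved the median of all genes from −0.061 to −0.71 on the log2 scale, so changes with LPS are relative to the scaling. In bulk RNA, fewer cells of a type and less RNA per cell cannot be told apart.

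The 250 bases before the transcription starts in RefSeq (GRCm38.p6) were searched for the core of the HIF binding motif, ACGTG on either strand, since the members include the HIF-1α subunit and many of its known targets. The palindrome CACGTG, the E-box that MYC and USF proteins can bind, contains this core and was counted as 1 core where it occurred. Of the 10 members, 8 had at least 1 core before a start, and 3 had the palindrome. Counted in the same way, 18.5% of the 27025 genes with such windows had the core and 6.86% the palindrome. These genes include ones not tested here and were not matched to the members in base composition. The members include known HIF-1 targets chosen by name, so the shares are a description and no test of enrichment. Per window, the core was in 9 of the members' 13 and in 16.6% of all 32851. *Hk1* and *Pfkp* had none in these windows. The stretches around the core nearest to a start are shown to place the letters in each gene, 5′ to 3′ on the gene's strand with the cores in capitals, and they are shorter where an annotated exon overlaps them.
Hif1a (chr12:73907770-73907829, plus strand): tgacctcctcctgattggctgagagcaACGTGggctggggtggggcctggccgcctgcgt
Slc2a1 (chr4:119108697-119108726, plus strand): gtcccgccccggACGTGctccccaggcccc
Hk2 (chr6:82774474-82774533, minus strand): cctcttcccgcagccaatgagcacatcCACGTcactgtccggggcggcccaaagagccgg
Hk3 (chr13:55021509-55021568, minus strand): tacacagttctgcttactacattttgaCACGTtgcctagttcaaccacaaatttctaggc
Pfkfb3 (second start, chr2:11502111-11502170, minus strand): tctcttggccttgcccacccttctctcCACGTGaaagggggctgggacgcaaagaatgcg
Pgk1 (chrX:106186942-106187001, plus strand): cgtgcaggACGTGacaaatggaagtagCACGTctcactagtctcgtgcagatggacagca
Ldha (chr7:46845743-46845802, plus strand): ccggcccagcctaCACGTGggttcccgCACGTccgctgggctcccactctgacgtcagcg
Slc16a3 (chr11:120949037-120949066, plus strand): gtgACGTGcgcgggggACGTGccgcgcgac
*Ldha* had 3 cores in its first window, 2 of them as palindromes, and *Hif1a*, *Hk2*, *Pgk1*, and *Slc16a3* had 2 each. A match is a description of these letters and does not show that a factor binds there.

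Compared per length of merged exons (RPKM), *Ldha* had the highest level in every condition and *Hk3* the next. In PBS, *Ldha* was at 224.4 ± 32.1 RPKM (SD, n = 3) and *Hk3* at 98.8 ± 4.96 RPKM. From *Slc2a1* at 19.0 ± 8.04 RPKM down to *Pgk1* at 13.8 ± 3.13 RPKM, the neighbours in the order (*Slc2a1*, *Hif1a*, *Hk2*, *Hk1*, *Slc16a3*, and *Pgk1*) had overlapping libraries. *Pfkp* at 7.59 ± 0.929 RPKM and *Pfkfb3* at 6.70 ± 1.39 RPKM were lowest and also overlapped. With LPS, *Pfkfb3* moved from the last place to the place below *Hk3*, at 137.6 ± 110.3 RPKM, although its libraries overlapped those of *Hk3* and of *Slc2a1*. *Pfkp* was then the lowest member, at 16.3 ± 4.36 RPKM, and its libraries lay apart from those of *Pgk1* above it. The order is by merged exons only and depends on the length used. For *Hk1* the merged exons hold 8532 bases and the longest transcript 4278. The place of *Pgk1* is uncertain, since 53.9% of the 50-base words of its transcripts also occur in other genes.

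**Figure D1:**
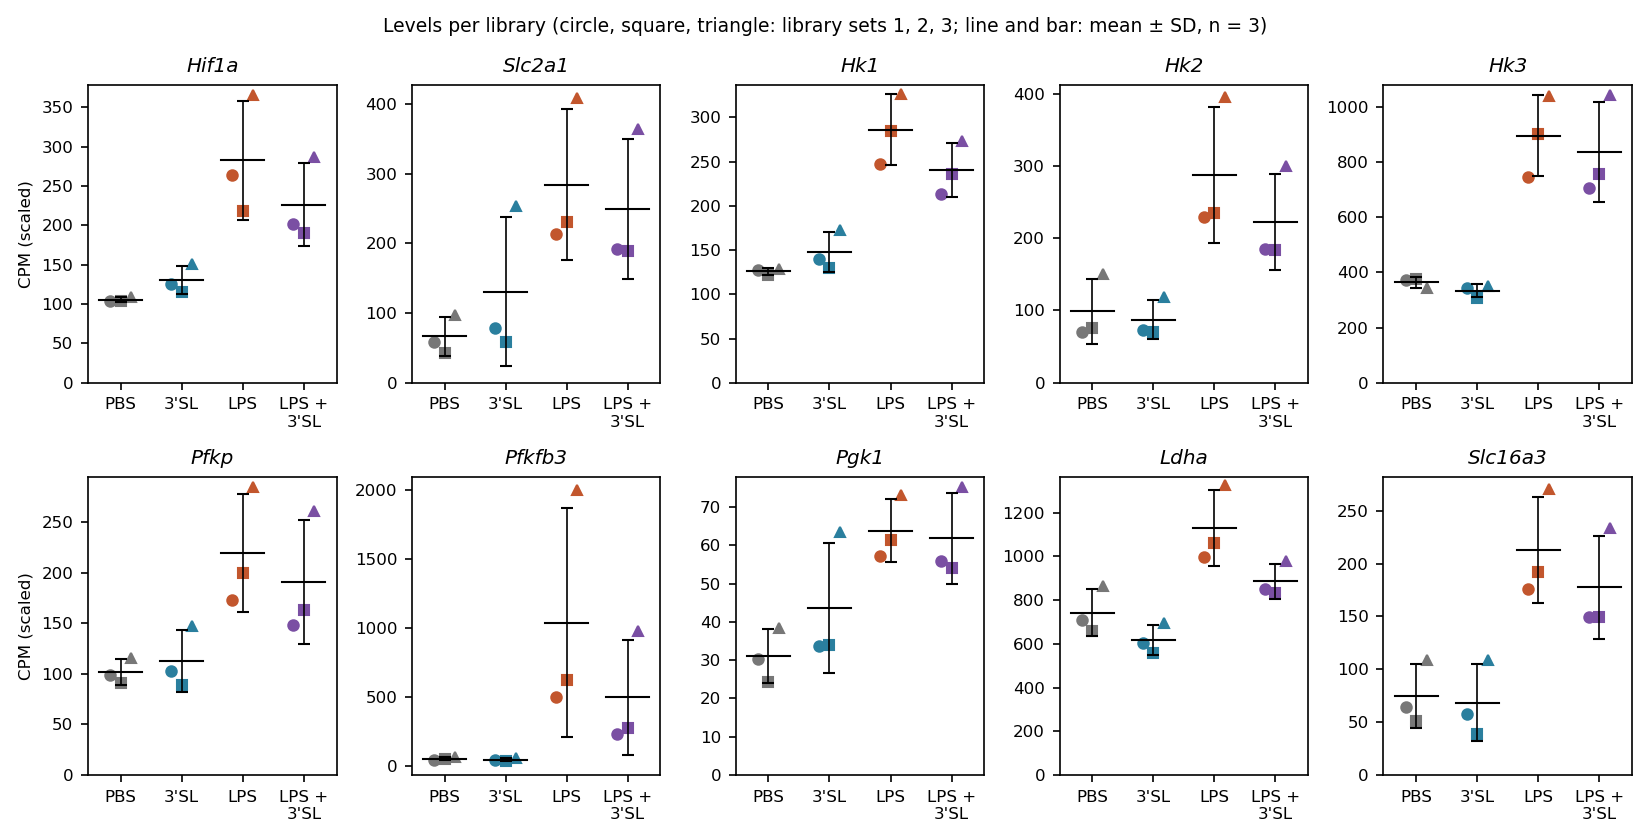
CPM on TMM-scaled library sizes for each of the 10 members in the 4 conditions, with 1 point per library (circles, squares, and triangles for library sets 1, 2, and 3) and mean ± SD (n = 3). In each panel the LPS libraries lie above the PBS libraries (for *Ldha* this direction turned under scaling by total counts), and the triangles are the highest points in 39 of the 40 member and condition pairs.

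LPS raised all 10 members compared with PBS, although *Ldha* was at −0.06 on the log2 scale when libraries were scaled by total counts. All 10 passed both thresholds as higher, where 18.3% of all genes tested did, and all 10 had no LPS library at or below a PBS library, where 27.3% of all genes did. The median log2 fold change of the members was 1.36, against −0.061 over all genes. The members were chosen with earlier results of these data known, so these shares describe them and test nothing. *Pfkfb3* changed most, 20.5-fold, and *Ldha* least, 1.52-fold. When libraries were scaled by total counts, 6 members were called, and *Hk1* (log2 fold change 0.52), *Pfkp* (0.43), *Pgk1* (0.38), and *Ldha* (−0.06) were not.

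*Hif1a* (chr12:73901375-73947530, plus strand) encodes the regulated subunit of HIF-1. It was at 103.9, 104.1, and 109.2 CPM in PBS and at 264.1, 218.2, and 365.7 CPM with LPS. The lowest LPS library was thus clearly above the highest PBS library, and the PBS libraries were closely spaced. *Hif1a* rose by 1.42 ± 0.207 (SE) on the log2 scale, or 2.67-fold (95% interval 1.95 to 3.67), with an adjusted p of 0.000233. The transcript level says nothing of the amount of HIF-1α protein, which was not measured in these libraries.

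*Slc2a1* (chr4:119108711-119137983, plus strand) encodes GLUT1, the main basal glucose transporter. It was at 58.9, 43.3, and 98.0 CPM in PBS and at 213.5, 231.2, and 409.0 CPM with LPS. The set 3 library was the highest in both conditions, and the conditions did not overlap. *Slc2a1* rose by 2.09 ± 0.554 (SE) on the log2 scale, or 4.26-fold (95% interval 1.83 to 9.95), with an adjusted p of 0.0097.

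Hexokinases phosphorylate glucose and so hold it in the cell. *Hk3* (chr13:55005985-55021385, minus strand) was at 373.6, 375, and 342.7 CPM in PBS and at 744.9, 903.9, and 1039 CPM with LPS. *Hk1* (chr10:62268855-62379908, minus strand), which encodes the form widely present across tissues, was at 127.7, 121.8, and 128.2 CPM in PBS and at 247.2, 284.1, and 326.9 CPM with LPS. For both genes the PBS libraries lay close together and well below every LPS library. *Hk2* (chr6:82725025-82774454, minus strand), the inducible form and a known HIF-1 target, was at 70.0, 75.6, and 150.3 CPM in PBS and at 229.8, 235.5, and 395.6 CPM with LPS. Its set 3 library was the highest in both conditions. The log2 fold changes were 1.30 ± 0.169 for *Hk3* (adjusted p = 0.00011), 1.18 ± 0.144 for *Hk1* (adjusted p = 7.03e-05), and 1.54 ± 0.359 for *Hk2* (adjusted p = 0.00478). These correspond to 2.46-fold, 2.27-fold, and 2.91-fold, and their 95% intervals overlapped.

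*Pfkfb3* (chr2:11471433-11554077, minus strand) encodes an enzyme that makes fructose 2,6-bisphosphate, the strongest allosteric activator of phosphofructokinase-1. It was at 42.0, 47.6, and 62.4 CPM in PBS and at 499.5, 620.9, and 2001 CPM with LPS. The set 3 LPS library was far above the other two, and even the lowest was many times the highest PBS library. *Pfkfb3* had a log2 fold change of 4.36 ± 0.689 (95% interval 2.84 to 5.88, adjusted p = 0.000412), and the within-set log2 ratios were 3.57, 3.70, and 5.00. *Pfkp* (chr13:6579768-6648777, minus strand), the platelet form of phosphofructokinase-1, was at 98.9, 91.0, and 115.4 CPM in PBS and at 172.7, 199.7, and 284.6 CPM with LPS. It rose by less than *Pfkfb3*, with a log2 fold change of 1.11 ± 0.265 (adjusted p = 0.00563).

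*Pgk1* (chrX:106187100-106203699, plus strand) encodes phosphoglycerate kinase, which makes ATP in the later steps of glycolysis. It was at 30.3, 24.4, and 38.4 CPM in PBS and at 57.2, 61.3, and 73.1 CPM with LPS, a log2 fold change of 1.04 ± 0.259 (adjusted p = 0.00695). Its level is uncertain, since 53.9% of the 50-base words of its transcripts also occur in other genes, chiefly the processed pseudogene *Pgk1-rs7*, and the files list reads with more than 1 alignment apart from those on genes (8634639 to 11273250 per library). For *Hif1a* the share is 1.72%, from the overlapping *Gm49321* on the same strand. Genes on the other strand overlap *Hif1a*, *Slc2a1*, *Hk1*, *Hk3*, and *Pfkp*, and the strand setting of the counting is not given.

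*Ldha* (chr7:46841475-46855627, plus strand) encodes the subunit of lactate dehydrogenase that favours lactate. It was at 708.7, 658.1, and 862 CPM in PBS and at 996.4, 1063, and 1325 CPM with LPS. Every LPS library was above every PBS library, but the fold change was the smallest of the 10 members. *Ldha* rose by 0.60 ± 0.156 on the log2 scale (adjusted p = 0.00848), close to the 1.5-fold threshold of 0.585 on this scale, and it was −0.06 under scaling by total counts. The call was lost on leaving out PBS replicate 1 or 2, 3′SL replicate 3, or LPS replicate 3, with log2 fold changes of 0.57, 0.52, 0.58, and 0.47, and with all genes that had a count in the fit (0.58). For *Ldha*, 9.03% of the 50-base words are shared with other genes.

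*Slc16a3* (chr11:120948480-120960868, plus strand) encodes MCT4, which exports lactate from glycolytic cells. It was at 64.2, 50.9, and 108.4 CPM in PBS and at 176.4, 192.2, and 270.3 CPM with LPS. No library overlapped between the conditions, and the set 3 library was again the highest in each. *Slc16a3* rose by 1.52 ± 0.390 on the log2 scale, or 2.86-fold (adjusted p = 0.00836).

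Of the 4 members with the longest intervals, which were *Pfkfb3*, *Slc2a1*, *Slc16a3*, and *Hk2*, each had a coefficient of variation of 20.8% to 45.4% among the PBS libraries. *Hif1a* and *Hk1* had 2.85% and 2.81% there. Set 3 was the highest in 39 of the 40 member and condition pairs and in all 4 conditions for 9 members, the exception being *Hk3* in PBS, whereas 16.8% of all genes tested had set 3 highest in all 4 conditions. The summed 8 neutrophil markers were also higher in set 3 than in sets 1 and 2 within each condition (203.1 to 594.5 CPM, against 100.1 to 150 in set 1 and 170.2 to 275.8 in set 2), and all 8 had reads in every condition. The 6 proliferation markers, all of them with reads in every condition, were lower in set 3 (98.2 to 150.8 CPM, against 278.7 to 640.8 in the other two). The 10 stromal markers, all with reads, were at 704.5 to 816.7 CPM in set 1 and 31.3 to 131.3 CPM elsewhere, and the part of these cells in the members' levels was not tested. The proliferation sums were 578.7, 636.4, and 150.8 CPM in PBS and 294.4, 278.7, and 106.4 CPM with LPS, lower in each set, and no marker was called in the fit over all libraries (edgeR, median log2 fold change −1.05), but 5 of 6 were called lower with the sets as a block. The neutrophil sums were 100.1, 170.2, and 340.6 CPM in PBS and 150, 275.8, and 594.5 CPM with LPS, higher in each set, and again none was called (median 0.50), but 4 of 8 were called higher with the block. Called higher with LPS were 6 of the 9 macrophage markers and 2 of the 3 dendritic cell markers tested, where 18.3% of all genes were. All 5 dendritic cell markers on the list summed to at most 1.69 CPM in PBS and at most 15.4 CPM with LPS. Over all 14308 genes, the block called 2939 higher and 3439 lower with LPS. With the block, 5 macrophage markers, 2 dendritic cell markers, and 4 of the 8 stromal markers tested were called higher. The part of these markers in the LPS result was not tested. Without set 3, all 10 members were still called higher with LPS. Without set 1 the count was 6, and without set 2 it was 4, with 8 libraries in each fit.

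Other enzymes and transporters of glycolysis did not move as 1 group. Of the 27 genes on that list, 25 were tested, and 4 rose, 6 fell, and 15 were not called with LPS, with a median log2 fold change of 0.18 (in all genes, 18.3% were called higher and 20.2% lower). *Slc2a6*, a hexose transporter of lysosomal membranes, rose 74.8-fold, from 5.14 ± 1.15 to 384.1 ± 48.1 CPM (log2 fold change 6.23 ± 0.227, adjusted p = 1.68e-07). *Pfkl*, the liver form of phosphofructokinase-1, rose 3.03-fold, and *Tpi1*, triosephosphate isomerase, 1.58-fold, although *Tpi1* was at −0.001 on the log2 scale under scaling by total counts. *Pfkfb2* fell by 1.99 on the log2 scale, *Slc2a3*, which encodes the neuronal transporter GLUT3, by 1.40, and *Slc2a8* by 1.18. *Pfkfb4*, whose product like that of *Pfkfb3* makes and removes fructose 2,6-bisphosphate, was at a log2 fold change of −0.70 (adjusted p = 0.0433), in the opposite direction to *Pfkfb3*. This call was lost in DESeq2 (adjusted p = 0.051), with DESeq2's size factors (0.0706), and on leaving out any of 8 single libraries, and the value was −0.48 without PBS replicate 3 (adjusted p = 0.167, edgeR). The call of *Tpi1* was also lost without LPS replicate 3 (0.57). Among the enzymes not called were *Aldoa* (0.25), *Gpi1* (−0.09), and *Pkm* (0.18), and *Eno1* (0.53) missed the fold threshold, all as log2 fold changes and named after their values were seen.

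Of the genes for HIF subunits and oxygen sensing, 13 of 14 were tested, and 2 were called higher and 1 lower with LPS, with a median log2 fold change of 0.27. *Vhl*, which encodes the substrate receptor that binds hydroxylated HIF-1α, rose 2.51-fold, from 20.5 ± 1.76 to 51.5 ± 6.64 CPM (adjusted p = 2.44e-05). *Cul2*, the scaffold of the same ligase, rose 2.11-fold (adjusted p = 1.31e-05), but was at 0.43 on the log2 scale and not called under scaling by total counts. *Epas1*, which encodes HIF-2α, fell by 2.10 on the log2 scale, from 29.0 ± 10.1 to 6.74 ± 3.82 CPM (adjusted p = 0.00655), the opposite direction to *Hif1a*. *Arnt*, the partner of both, was at a log2 fold change of 0.08 ± 0.109 and was not called.

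Among 25 other known HIF-1 targets, 23 were tested, and 6 rose, 3 fell, and 14 were not called with LPS, with a median of 0.47. For these and the next list, the shares over all genes were 18.3% higher and 20.2% lower. *Ak4*, a mitochondrial adenylate kinase, rose 10.9-fold, and *Bnip3*, a mitophagy receptor, 3.58-fold. *Adm*, the vasodilator peptide adrenomedullin, was 4.09-fold higher from a low level (adjusted p = 0.0411), a call lost under scaling by total counts (adjusted p = 0.107) and on leaving out any of 8 single libraries (0.0502 to 0.124, edgeR). *Cxcr4*, a chemokine receptor, fell by 3.74 on the log2 scale, and *Ankrd37* by 1.10, and *Bhlhe40*, a transcriptional repressor, was at 0.498 times its PBS level. Of 13 genes that govern the entry of pyruvate into mitochondria, 2 rose and 2 fell. *Pdk3* rose 2.64-fold while *Pdk2* fell by 1.71 on the log2 scale, 2 kinases that inhibit pyruvate dehydrogenase, and *Pdp1*, the phosphatase that reverses this, fell by 1.31. *Mpc1*, a subunit of the mitochondrial pyruvate carrier, was 1.57-fold higher (adjusted p = 0.0488) but at a log2 fold change of 0.02 under scaling by total counts, and at −0.01 when the sets were also a block. Its call was also lost with only the groups compared (adjusted p = 0.0852), with all genes that had a count (0.141), and on leaving out any of 11 single libraries, with 0.43 without LPS replicate 1 (adjusted p = 0.201, edgeR).

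Of the 9 genes of the pentose phosphate pathway, *Rpe* rose 1.86-fold, and *Shpk* and *Pgls* fell by 1.47 and 0.61 on the log2 scale. Of 11 tested regulators of glycolytic genes, *Arrdc4*, an arrestin that restrains glucose uptake, rose 2.73-fold and *Mlxip* 1.76-fold. *Rpe* and *Mlxip* were not called under scaling by total counts (log2 fold changes 0.24 and 0.15). *Myc* was at −1.45 (adjusted p = 0.0192) and *Trp53* at −0.66 on the log2 scale. The call of *Myc* was lost without LPS replicate 2 (adjusted p = 0.057), LPS replicate 3 (0.0733), or PBS replicate 3 (−1.001, adjusted p = 0.084, edgeR). *Trp53* was under the fold threshold without PBS replicate 3 (−0.58), as was *Pgls* there (−0.52), without LPS replicate 2, and in DESeq2. The list medians were −0.18 and 0.13, and 18.3% of all genes were called higher and 20.2% lower with LPS.

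The members' share of their own gene families differed by family, as RPKM and with no test. *Hk3* made up 76.0% ± 5.36 (SD, n = 3) of hexokinase RPKM in PBS and 75.0% ± 2.09 with LPS, while the summed hexokinase level went from 130.1 ± 2.78 to 325 ± 58.8 RPKM. *Hkdc1* was at most 0.0131% of the family in every library. *Ldha* was 98.8% ± 0.423 and 99.1% ± 0.376 of lactate dehydrogenase, and *Ldhb* was at 2.63 ± 0.625 RPKM in PBS. *Pfkp* was 29.9% ± 1.58 of phosphofructokinase-1 in PBS and 24.8% ± 0.839 with LPS, and *Pfkl* was 60.9% ± 5.13 and 72.4% ± 0.666. *Pfkm* was at 2.24 ± 0.618 RPKM in PBS and at 1.81 ± 0.256 RPKM with LPS.

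The makeup of the transporters and of the PFKFB enzymes moved further. *Slc2a1* was 69.3% ± 10.3 of the RPKM of 4 glucose transporters in PBS and 39.2% ± 8.90 with LPS, while *Slc2a6* was 6.38% ± 2.71 and 59.5% ± 8.48, and no library of either gene overlapped in share between the conditions. *Pfkfb4* was 48.9% ± 2.83 and *Pfkfb3* 39.0% ± 0.390 of the PFKFB family in PBS, and with LPS *Pfkfb3* was 94.4% ± 2.98. With LPS + 3′SL the share of *Pfkfb3* was 82.8% ± 8.64 and that of *Pfkfb4* 15.5% ± 7.58. *Slc16a3* was 69.4% ± 11.7 of 3 monocarboxylate transporters in PBS and 87.9% ± 3.95 with LPS, and *Slc16a1*, which encodes MCT1, was at 4.22 ± 0.701 and 4.99 ± 3.81 RPKM.

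**Figure D2:**
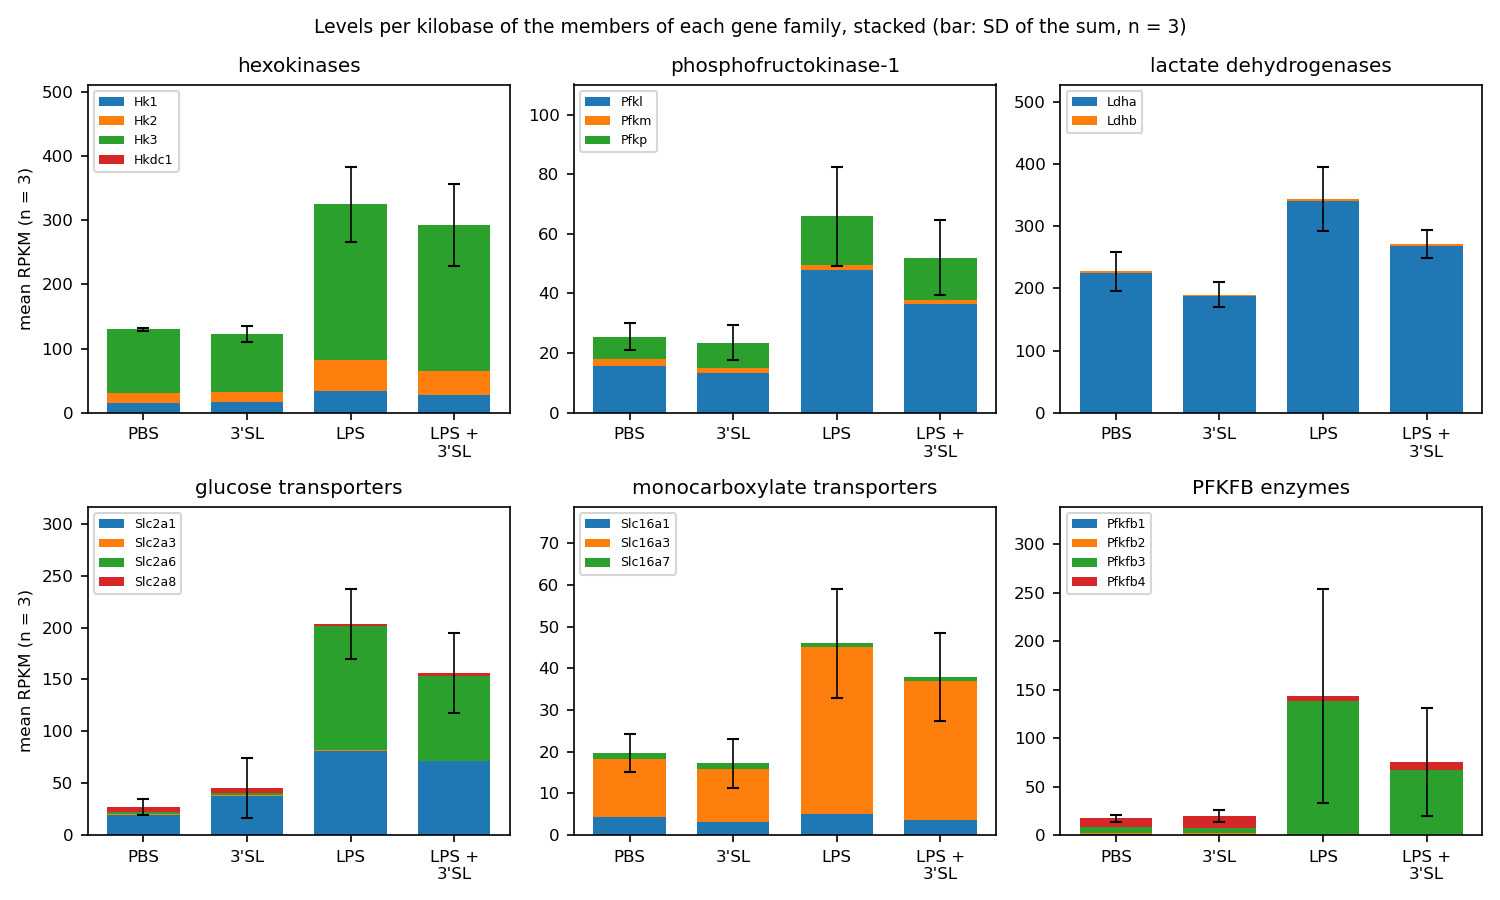
Mean RPKM (n = 3) of the genes of 6 families, stacked, in each condition, with the SD of the sum as a bar. *Hk3*, *Ldha*, and *Slc16a3* fill most of their families in each condition, *Slc2a6* appears in the LPS conditions beside *Slc2a1*, and *Pfkfb3* is the largest part of its family in the LPS conditions, where *Pfkfb4* is in the other two.

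In the fit over all libraries, which has no term for the sets, 3′SL alone left the members without a called change. Of the 10 members, 0 passed both thresholds against PBS, as did 0% of all genes (edgeR). Without adjustment, 0 members and 1439 genes in all were under 0.05, and DESeq2 called 0 members and 88 genes. The log2 fold change was above 0 for 5 members and below 0 for 5, with a median of 0.015. The 95% intervals of *Slc2a1*, *Pfkfb3*, and *Pgk1* reached beyond 1 on this scale. *Slc2a1* was at 79.0, 59.0, and 253.3 CPM with 3′SL, against 58.9, 43.3, and 98.0 CPM in PBS. It was higher in each set, but most in set 3, with within-set log2 ratios of 0.42, 0.45, and 1.37. Its log2 fold change was 0.97 ± 0.538 (95% interval −0.22 to 2.15, adjusted p = 0.596) and was 0.01 without 3′SL replicate 3. With the sets as a block it was 0.79 and called (adjusted p = 0.0459, edgeR), as were 2.84% of all genes.

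*Hif1a* was at 125.4, 115.1, and 150.4 CPM with 3′SL and *Hk1* at 140.1, 129.6, and 173.2 CPM. For both, every 3′SL library was above every PBS library, by a small margin. The share of all genes with this pattern was not computed, so it says little of these members. The log2 fold changes were 0.30 ± 0.203 (adjusted p = 0.665) and 0.23 ± 0.143 (adjusted p = 0.642), and neither was called with the block. *Pgk1* was at 33.8, 34.0, and 63.4 CPM, with a log2 fold change of 0.49 ± 0.257 and overlapping conditions. Higher in all 3 sets with 3′SL were 4 members (*Hif1a*, *Slc2a1*, *Hk1*, and *Pgk1*), a pattern that 25.8% of all genes had. Lower in all 3 sets were *Ldha*, at 605.8, 558.1, and 693.4 CPM (log2 fold change −0.26 ± 0.155), and *Pfkfb3* (−0.19 ± 0.604), against 25.5% of all genes.

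Beside LPS, 3′SL was accompanied by lower values of most members, none of which passed the test. Of the 10 members, 0 were called for LPS + 3′SL against LPS, as were 0% of all genes (edgeR). Without adjustment, 1 member and 995 genes in all were under 0.05, and DESeq2 called 0 members and 113 genes. These fits have no term for the sets, so differences between sets stay in the error. A count of 0 there says little of the members. With the sets as a block, 0 members and 1.45% of all genes were called (edgeR), and the SE of *Pfkfb3*, for example, was 0.283 instead of 0.606. Both this comparison and that of LPS with PBS use the LPS libraries. The log2 fold change was below 0 for all 10 members, with a median of −0.26 (−0.01 over all genes), although that of *Pgk1* was above 0 under scaling by total counts (0.03). Within the sets, 28 of 30 values were below 0, and 8 members were lower in all 3 sets, against 25.7% of all genes. The members are correlated with each other, so these values are not independent of one another.

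*Pfkfb3* had the largest difference. It was at 232.4, 276.5, and 981.4 CPM with LPS + 3′SL, against 499.5, 620.9, and 2001 CPM with LPS. The conditions overlapped because the set 3 libraries were far above the rest, but within each set the value with 3′SL was less than 0.5 times that without, with log2 ratios of −1.10, −1.17, and −1.03. The log2 fold change was −1.07 ± 0.606 (95% interval −2.40 to 0.27, adjusted p = 0.846), and with the sets as a block −1.09 (adjusted p = 0.0765), where 1.45% of all genes were called. With 1 library left out it was between −2.03 and −0.17. Without set 3 the log2 fold change was −1.13 and was called (adjusted p = 0.0196, edgeR), as were 149 of 14396 genes.

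*Ldha* was at 849, 832, and 977 CPM with LPS + 3′SL, against 996.4, 1063, and 1325 CPM with LPS. Its LPS + 3′SL libraries all lay below its LPS libraries, which was so for 1 of the 10 members and for 6.5% of all genes. The log2 fold change was −0.35 ± 0.155, with an unadjusted p of 0.0467 and an adjusted p of 0.711, and with the block the adjusted p was 0.0384 at a size under the 1.5-fold threshold. *Hk2* had within-set log2 ratios of −0.32, −0.35, and −0.40, *Hif1a* of −0.39, −0.20, and −0.35, and *Hk1* of −0.22, −0.27, and −0.26. For *Hk3* and *Pgk1* set 3 was slightly above 0, at 0.01 and 0.04.

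**Figure D3:**
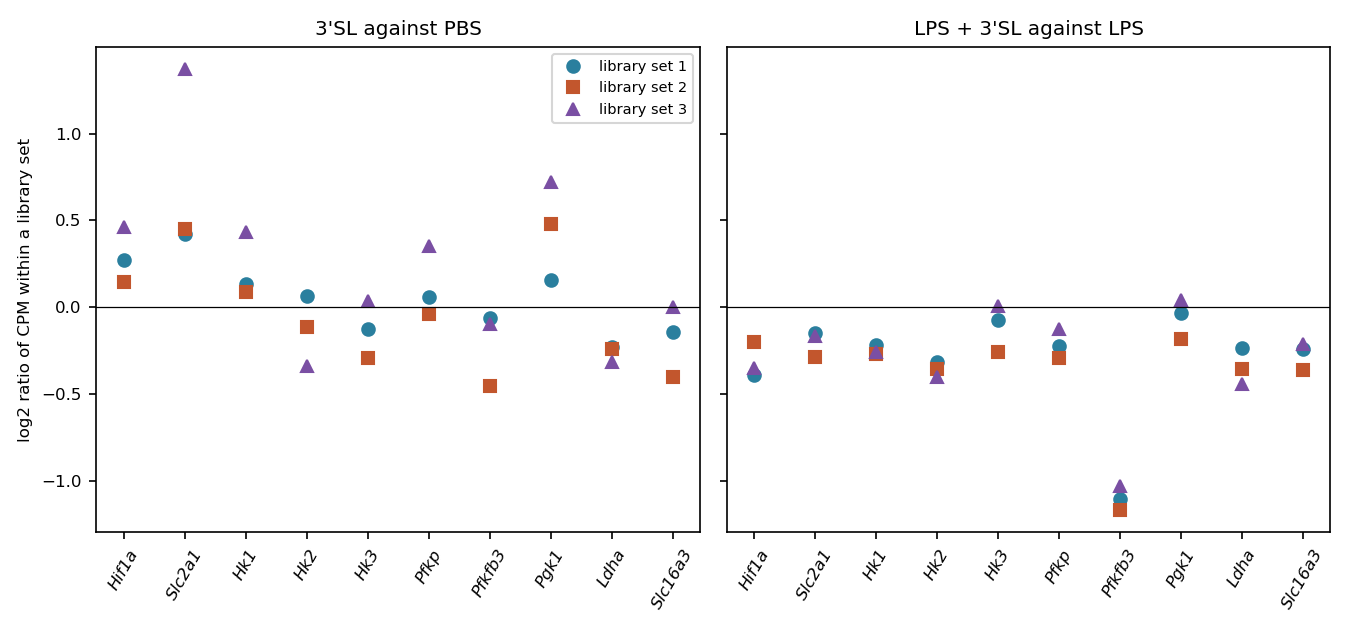
Log2 ratios of CPM within each library set for the 10 members, 3′SL against PBS (left) and LPS + 3′SL against LPS (right). On the left the ratios of *Slc2a1* reach 1.37 in set 3, and on the right all lie below 0 except *Hk3* and *Pgk1* in set 3, with *Pfkfb3* near −1.

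In the presence of 3′SL, LPS still raised most members. Compared with 3′SL alone, 7 of the 10 members were called higher with LPS + 3′SL, where 14.3% of all genes were called higher and 14.8% lower. *Pfkfb3* had a log2 fold change of 3.48 ± 0.662 (adjusted p = 0.00191), *Slc16a3* of 1.37 ± 0.389, *Hk2* of 1.349 ± 0.357, and *Hk3* of 1.33 ± 0.170. *Hif1a* (0.80), *Pfkp* (0.75, adjusted p = 0.0449), and *Hk1* (0.71) were also called. *Ldha* (0.52, adjusted p = 0.0237) was under the fold threshold, and *Slc2a1* (0.93 ± 0.537, adjusted p = 0.208) and *Pgk1* (0.50, adjusted p = 0.159) missed the adjusted p. With the sets as a block *Slc2a1* was at 1.12 and called (adjusted p = 0.000685, edgeR), with within-set log2 ratios of 1.29, 1.68, and 0.53. All 10 were called without 3′SL replicate 3, in which *Slc2a1* was at 253.3 CPM. The count was 4 without 3′SL replicate 2 or without LPS + 3′SL replicate 3, 8 with the block, and 4 under scaling by total counts, which moved the median of all genes from −0.067 to −0.54. Not called under total counts were *Hif1a* (0.30), *Pfkp* (0.255), and *Hk1* (0.22). The call of *Pfkp* was also lost with only the groups compared (adjusted p = 0.0847, edgeR). It was lost too on leaving out any of several single libraries, for example LPS + 3′SL replicate 3 (adjusted p = 0.195, edgeR). *Hk2* and *Slc16a3* lost theirs without 3′SL replicate 2 or without LPS + 3′SL replicate 3. That of *Slc16a3* was also lost without 3′SL replicate 1 (adjusted p = 0.0632, edgeR).

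**Figure D4:**
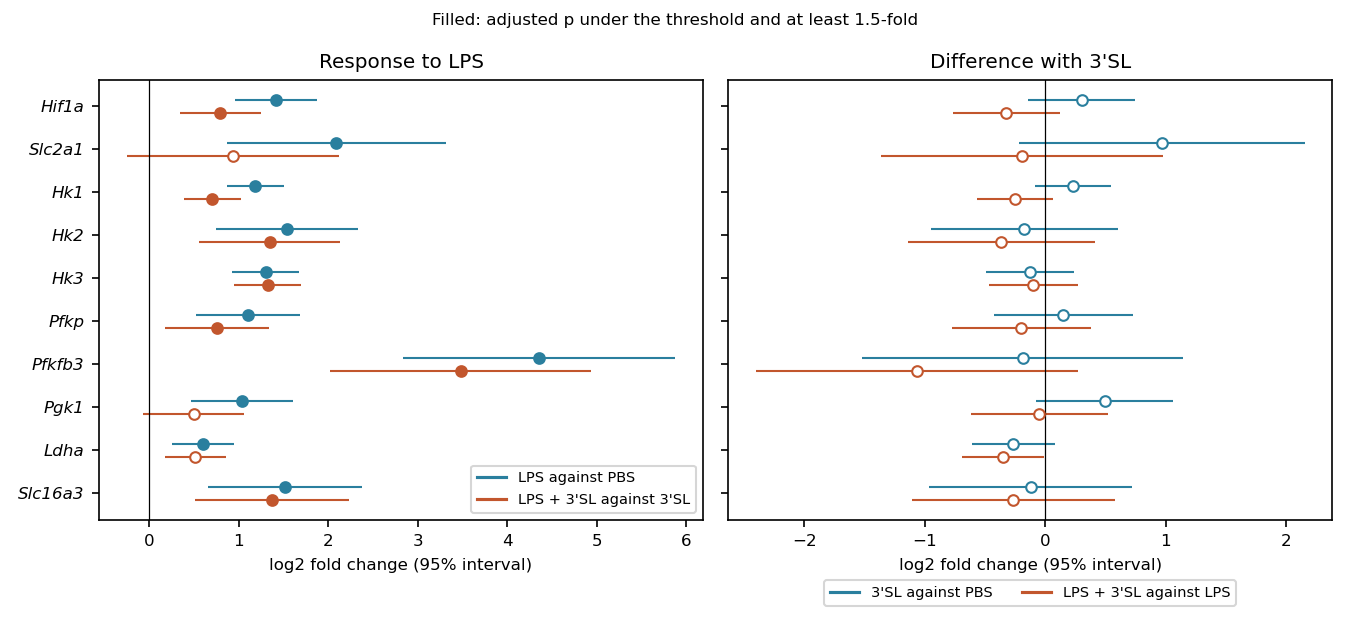
Log2 fold changes with 95% intervals (edgeR, all 12 libraries) of the 10 members, for LPS with and without 3′SL (left) and 3′SL with and without LPS (right), where filled points passed both thresholds. All 10 are filled for LPS against PBS and 7 for LPS + 3′SL against 3′SL (the *Ldha* point for LPS against PBS lay at −0.06 under scaling by total counts), and none is filled on the right.

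The LPS response without and with 3′SL was compared by the interaction, in which 0 of the 10 members and 0% of all genes were called (edgeR). Without adjustment, 1 member and 872 genes in all were under 0.05, and DESeq2 called 0 members and 44 genes. The interaction was −1.16 ± 0.755 for *Slc2a1* (adjusted p = 0.859), −0.62 ± 0.287 for *Hif1a* (adjusted p = 0.819), and −0.48 ± 0.202 for *Hk1* (unadjusted p = 0.0375, adjusted p = 0.803) on the log2 scale. *Hk3* was near 0, at 0.03 ± 0.236, with a 95% interval of −0.49 to 0.55. *Hif1a*, *Slc2a1*, and *Hk1* were higher with 3′SL in all 3 sets without LPS and lower in all 3 beside it, as were 6.55% of all genes. With the sets as a block in edgeR 0 members were called, where 1.55% of all genes were. With the block in DESeq2, which was added after the data were seen, *Hif1a* (−0.62, adjusted p = 0.0147) and *Slc2a1* (−1.01, adjusted p = 0.0251) were. That fit called 506 of all 14308 genes, more than the block in edgeR.

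Over the 12 libraries, the members' log2 CPM rose and fell together, with a median Pearson r of 0.927 over 45 pairs and a range of 0.749 (*Pgk1* and *Ldha*) to 0.991 (*Slc2a1* and *Pgk1*). After condition means were removed the median r was 0.83. These libraries share the conditions and the sets, so r describes them and is given with no p. The genes most like *Hif1a* over the 12 libraries were *Pafah1b1* (r = 0.985), *Gramd1a*, *Gpbp1*, *2010110E17Rik*, and *Fmnl2*, and those most like *Hk1* were *Samsn1* (r = 0.994), *Gm13835*, *Gm8388*, *Klf6*, and *Tiparp*. For *Slc2a1* the gene most like it was the member *Pgk1*, followed by *Psmd7* (r = 0.989), *Ankrd66*, *Msantd3*, and *Fth1*, which encodes the ferritin heavy chain.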

How the data were processed

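The files of the 12 libraries hold raw counts of reads on each gene as deposited by the authors, not normalized. The submitters' processing notes name FastQC, Trimmomatic, STAR, HTSeq, and DESeq2. The build and the strand setting of the counting are not given in the sources used here. Identifiers were matched without versions to GENCODE M21 (GRCm38), which named 42462 of 43626. Reads on no gene row, 33.2% to 37.1% of those listed per library, were left out. In R 4.3.3 and edgeR 4.0.16, genes were kept by filterByExpr and scaled by TMM, and a model with a mean for each condition was fitted to all libraries. Adjusted p-values are Benjamini-Hochberg over all genes tested. SEs are from the same fit. RPKM is CPM per kilobase of merged exons. The members and lists were chosen with earlier results of these data known. From each list, the 3 called genes with the largest change per direction with LPS are named, besides every member and isozyme. A listed gene is not reported here. The library sets were found by clustering residuals. Alternatives were DESeq2 1.42.0, other scalings and filters, the sets as a block, only the groups compared, no fold minimum, the longest transcript as the length, and leaving out each library. Leaving out whole sets and 2 combinations with the block were added after the data were seen. Within-set ratios carry no error. Libraries of 1 condition differed by more than sampling noise. Lymphocyte markers summed to 0.733 to 2.77 CPM, dendritic cell markers to 0.947 to 16.0 CPM, and erythroid markers to at most 0.261 CPM, with 4 of 6 at 0 in every library.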

Additional observations from a re-analysis of the deposited data

Results flagged for a closer look

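For 3 members, the 3′SL library was above the PBS library in each of the 3 sets and the LPS + 3′SL library below the LPS library in each, a pattern that 6.55% of all genes tested had. The difference between the effects of 3′SL beside LPS and without it (log2) was −0.62 for *Hif1a*, −1.16 for *Slc2a1*, and −0.48 for *Hk1*. The interaction test did not call any of them (edgeR adjusted p = 0.819, 0.859, and 0.803), and with the sets as a block the adjusted p was 0.0795, 0.104, and 0.0973. The within-set differences were −0.66, −0.34, and −0.81 for *Hif1a*, −0.57, −0.73, and −1.54 for *Slc2a1*, and −0.35, −0.36, and −0.69 for *Hk1*. Their sign follows from the pattern named above and is no further result.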

How the results depend on the processing

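Over the members called for LPS against PBS, the count of 10 became 6 under total counts, 6 under total counts with the library sets as a block, 6 without set 1, and 4 without set 2, and was 9 to 10 with 1 library left out. For LPS + 3′SL against 3′SL, 7 became 4 under total counts, 3 without set 1, and 2 without set 2, and 4 to 10 with 1 library left out. For 3′SL against PBS, 0 became 1 with the block in edgeR or in DESeq2, where 406 and 648 genes in all were called. For LPS + 3′SL against LPS, 0 became 1 without set 3, where 149 genes in all were called. For the interaction, 0 became 2 with the block in DESeq2, where 506 genes in all were. With 1 library left out, these 3 counts stayed at 0. Genes called on the wider lists with LPS were 33, and 53 under total counts with the block, 21 without set 2. Over all genes, these fits called 5502, 9098, and 3516. With the longest transcript as the length, shares became 70.5% (PBS) and 70.2% (LPS) for *Hk3*, 27.8% and 22.4% for *Pfkp*, and 41.3% (PBS) for *Pfkfb3*.

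Under total counts, and with the block as well, signs turned with LPS for *Ldha* (−0.062 and −0.058), *Ldhb* (−0.414 and −0.475), *Slc16a1* (−0.497 and −0.591), and *Tpi1* (−0.001 and −0.001), and with the block for *Mpc1* (−0.012). They turned for *Pgk1* in LPS + 3′SL against LPS (0.033 and 0.027), and in the interaction for *Ldha* (0.099 and 0.097) and *Slc16a3* (0.051 and 0.062). *Slc16a1* with LPS was −0.722 without set 3 and −0.597 to 0.529 with 1 library left out. *Pfkp* for 3′SL was −0.004 without set 3, and *Pgk1* for LPS + 3′SL against LPS 0.012 without set 2. With 1 library left out, signs also turned for 3′SL against PBS in *Hk2* (−0.503 to 0.265), *Pfkp* (−0.12 to 0.298), and *Slc16a3* (−0.662 to 0.251), for LPS + 3′SL against LPS in *Slc2a1* (−0.572 to 0.165), *Hk3* (−0.288 to 0.023), *Pfkp* (−0.491 to 0.036), and *Pgk1* (−0.213 to 0.062), and for the interaction in *Hk2* (−0.628 to 0.138), *Hk3* (−0.163 to 0.148), *Pfkfb3* (−1.842 to 0.014), *Ldha* (−0.205 to 0.048), and *Slc16a3* (−0.513 to 0.399). None of these was called in the direction it turned to, except *Slc16a1* without set 3 (adjusted p = 0.000815). The cause was not tested. The labels give no replicate numbers, and those used here follow accession order. The sets found in the data coincide with these numbers. The only pairing of libraries fitted was the block of these sets.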

Other observations

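With the library sets as a block, genes on the other lists were called for 3′SL that the fit over all libraries did not call. They were chosen after their values were seen. For 3′SL against PBS, *Slc2a6* was at 4.11, 6.39, and 4.92 CPM in PBS and at 7.89, 8.31, and 9.38 CPM with 3′SL (block log2 fold change 0.75, adjusted p = 0.00949, edgeR). *Mxi1*, which encodes an antagonist of MYC, was at 24, 25.1, and 29.8 CPM in PBS and at 42.1, 39.3, and 55.5 CPM with 3′SL, and at 18.4, 15.3, and 23.0 CPM with LPS and 32.6, 27.6, and 38.5 CPM with LPS + 3′SL. Its 3′SL libraries were above their controls both times, without overlap, with block adjusted p of 0.0024 and 0.00148 (edgeR). *Hmox1*, heme oxygenase 1, was at 1249, 942.9, and 2697 CPM in PBS and at 3155, 2580, and 11060 CPM with 3′SL, so that set 3 was highest in each (block adjusted p = 0.00436).

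*Pfkfb4* was at 23.9, 25.8, and 26.4 CPM with LPS and at 39.7, 44.1, and 46.4 CPM with LPS + 3′SL, a difference opposite in sign to that of *Pfkfb3*, with no overlap of its libraries (block log2 fold change 0.77, adjusted p = 0.0334, edgeR). *Slc2a6* was at 338, 434, and 380.2 CPM with LPS and at 204.4, 291.1, and 290.9 CPM with LPS + 3′SL, which the block placed at −0.56 with an adjusted p of 0.0154, under the fold threshold. *Pgd* and *Taldo1* of the pentose phosphate pathway were also called higher with 3′SL by the block (0.82 and 0.61), as was *Arrdc4* (0.99), and *Ankrd37*, *Epas1*, and *Bpgm* were called lower (−1.02, −0.68, and −0.97). Over all genes, the block called 2.84% for 3′SL against PBS and 1.45% for LPS + 3′SL against LPS.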
